A study of Mus musculus with 9 samples.

Results

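Small leucine-rich proteoglycans were followed through bulk RNA sequencing of hepatic stellate cells from injured mouse livers. The family was represented by 8 genes, chosen by name: Dcn (decorin), Bgn (biglycan), Lum (lumican), Fmod (fibromodulin), Ogn (osteoglycin), Aspn (asporin), Prelp (prolargin) and Podn (podocan). They are 8 of the 35024 gene rows of the deposited table, and all 8 were found in it. The 9 libraries came from mice on a C57BL/6J background that carried floxed Yap1 and had been given the liver toxin carbon tetrachloride (CCl4) 6 times, once every 3 days. Cells were collected 2 days after the final dose by density centrifugation and sorting on retinoid autofluorescence, which selects vitamin A storing stellate cells, and were lysed directly. The 5 control libraries (LYT004, LYT005, LYT014, LYT015 and LYT017) were floxed without Cre. The 4 YAP-deleted libraries (LYT006, LYT008, LYT013 and LYT016) were floxed with LratCre, a Cre recombinase driven by the promoter of the retinol-esterifying enzyme gene Lrat. Uninjured mice and Cre carriers without a floxed allele were not analysed here, so Yap1 loss and the Cre transgene cannot be told apart. Age and sex, and whether each library is 1 mouse, are not given in the sources used here, and every p-value below therefore reflects library-to-library spread that could be partly technical.

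Small leucine-rich proteoglycans are secreted matrix proteins built from leucine-rich repeats that fold into a curved solenoid. They bind collagen fibrils and set fibril diameter and spacing, and several of them also bind transforming growth factor beta and other ligands. Decorin and biglycan carry chondroitin or dermatan sulfate chains, and fibromodulin, lumican and osteoglycin can carry keratan sulfate. Asporin, prolargin and podocan are further members of the family. In the liver, stellate cells and portal fibroblasts are the main source of matrix after injury, and decorin and biglycan are among the best known matrix products of stellate cells.

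Values in the deposited table are variance-stabilised, on a scale close to log2 ("log2-like"). Whole counts could be recovered from them, and a normalised count is a recovered count divided by the size factor of its library. At low counts the deposited scale is narrower than log2, so differences of scarce genes in log2-like units understate the log2 fold. Recovered totals ran from 14052502 to 31816055 counts. Yap1, the targeted gene, had 2902 to 3653 normalised counts in control LYT004, LYT005, LYT015 and LYT017, and 642 to 648 in YAP-deleted LYT006, LYT008 and LYT016. The library labelled control LYT014 had 618, and the library labelled YAP-deleted LYT013, in the column headed LYT013.1, had 2530. These 2 libraries go against their labels, so each comparison is given with all 9 libraries as labelled and again with the 7 others (4 control, 3 YAP-deleted). The cells expressed stellate cell genes in every library: all 12 fixed markers were above the lowest value, with Reln (an extracellular glycoprotein) at 89403 to 211506 and Lrat at 35209 to 69555 normalised counts. In bulk RNA, fewer cells of a type and less RNA per cell cannot be told apart.

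Decorin, biglycan, prolargin and lumican transcripts were abundant in every library, and the other 4 were far scarcer. Per kilobase of the longest annotated transcript, the mean level over the 9 libraries was 162289 ± 25944 normalised counts for Dcn, 79173 ± 7163 for Bgn, 26896 ± 4860 for Prelp and 11432 ± 2528 for Lum (SD, n = 9). These 4 formed a fixed order, since the per-kilobase ranges of neighbouring genes did not overlap: the lowest Dcn value was 124727 and the highest Bgn value 92045, and the lowest Prelp value was 19301 and the highest Lum value 15359. Podn (225 ± 47.4), Fmod (158 ± 168) and Ogn (149 ± 104) followed, and these 3 could not be ranked beyond their spread, with per-kilobase ranges of 154 to 287, 25.7 to 483 and 37.4 to 325. Aspn lay lowest at 1.62 ± 0.918 per kilobase, which rests on 0 to 5 recovered counts a library. The 8 genes together held 2.81% to 3.56% of all counts of a library, and Dcn, Bgn and Prelp made up 92.1% to 96.7% of that share.

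**Figure D1:**
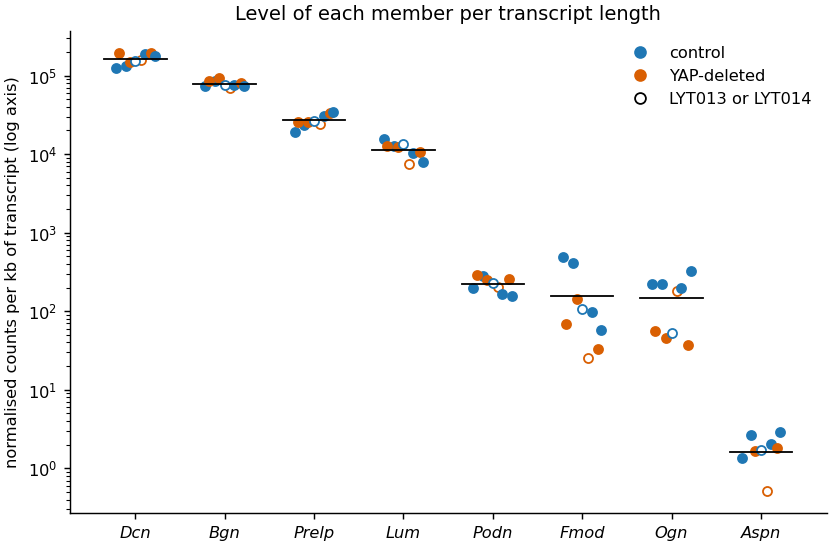
Normalised counts per kilobase of the longest transcript (vertical, log axis) for each of the 8 genes in each of the 9 libraries, filled for libraries whose Yap1 level follows the label and open for LYT013 and LYT014; black lines are means over 9 libraries. Dcn, Bgn, Prelp and Lum lie at or above 7500 in every library, Podn, Fmod and Ogn between 25.7 and 483, and Aspn below 3; the library with 0 Aspn counts (LYT006) is not drawn.

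Dcn, whose product decorates collagen fibrils and sequesters growth factors, was the most abundant gene of any kind in 6 of the 9 libraries and the second in the other 3. Its normalised counts were 219271, 229488, 268234, 325927 and 315793 in the controls LYT004, LYT005, LYT014, LYT015 and LYT017, and 336478, 259909, 273554 and 339089 in YAP-deleted LYT006, LYT008, LYT013 and LYT016. The groups overlapped, and the lowest YAP-deleted value lay above the 2 lowest control values. Dcn differed by 0.16 ± 0.30 log2-like units between YAP-deleted and control with 9 libraries and by 0.21 ± 0.37 with 7 (SE, limma adjusted p = 0.862 and 0.957). Bgn, the nearest relative of decorin, varied least of the 8, from 168749 (LYT013) to 222656 (LYT008). Its difference was 0.09 ± 0.25 with 9 libraries and 0.16 ± 0.29 with 7, and the groups overlapped in both.

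Prelp, whose product anchors basement membranes to collagen, ran from 69771 (control LYT004) to 123976 (control LYT017), so both ends of its range were control libraries. The YAP-deleted libraries held 86638 to 119490, inside that range, and the difference was 0.02 ± 0.24 with 9 libraries and 0.07 ± 0.28 with 7. Lum, a regulator of fibril assembly, ran from 18360 in the library labelled YAP-deleted LYT013 to 37598 in control LYT004. Control LYT017 was nearly as low, at 19669, and the other YAP-deleted libraries held 26175 to 30988. Its difference was −0.15 ± 0.23 with 9 libraries and 0.07 ± 0.22 with 7. The 4 abundant genes had limma adjusted p-values from 0.832 to 0.985 with 9 libraries and from 0.957 to 0.976 with 7. The 95% intervals of their differences reached from −0.65 to 0.83 with 9 libraries and from −0.64 to 1.06 with 7, and differences within these bounds cannot be told from 0. These widths depend on the fit. With 9 libraries and robust moderation the SEs were 0.19 for Dcn, 0.16 for Bgn, 0.20 for Prelp and 0.22 for Lum.

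**Figure D2:**
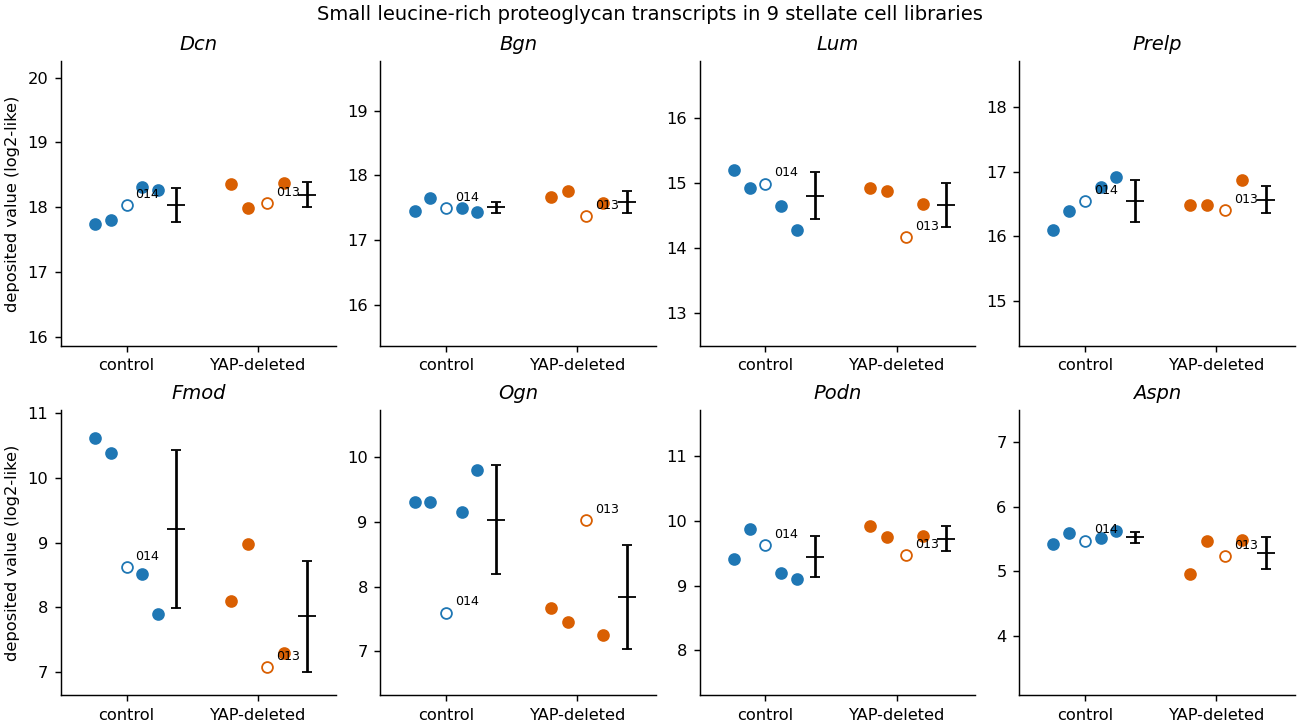
Deposited value (log2-like) of each gene in the 5 control and 4 YAP-deleted libraries, in order of library code within each group; each panel spans the same 4.4 units, black bars are the group mean ± SD as labelled, and open circles mark LYT013 and LYT014. Fmod spreads from 7.08 to 10.62 and Ogn from 7.25 to 9.81, Ogn with LYT014 low among the controls and LYT013 high among the YAP-deleted, while Bgn stays between 17.37 and 17.76.

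With all 9 libraries as labelled, 0 of the 8 genes passed the threshold, an adjusted p under 0.05 over all genes tested in limma. The share called among the 17199 genes tested was 0%. At an unadjusted p under 0.05 there were 2 of the 8, Fmod and Ogn, both lower in the YAP-deleted libraries, against 3.69% of all genes in that direction and 7.22% (1242 genes) in either. An alternative tool, voom on the recovered counts, also called 0 genes. The groups overlapped for all 8, whereas 2.84% of all genes had groups that did not overlap (1.15% lower and 1.69% higher in the YAP-deleted libraries). The differences of the 8 were 4 positive and 4 negative with a median of −0.063, beside a median of −0.00459 over all genes tested. With the 7 libraries 1 of the 8 passed, Ogn, which was lower in the YAP-deleted libraries, against 0.052% of 17292 genes called lower and 0.0694% (12 genes) in either direction (0.0173% higher). Voom called 9 genes, Ogn among them. The number of genes called was 6 without LYT004, 3 without LYT006, 7 without LYT008, 7 without LYT016 and 5 without LYT017, and Ogn was among those called each time. The omissions of LYT005 and LYT015 are not listed here, and Ogn passed in those as well. The range over all single omissions is given further below. The 8 genes had 5 positive and 3 negative differences with a median of 0.069, beside −0.00676 over all genes tested.

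**Figure D3:**
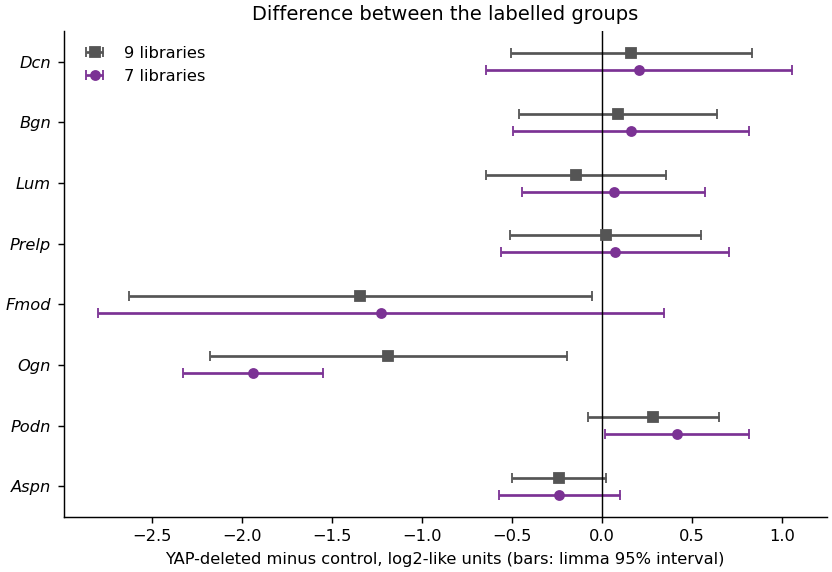
Difference between YAP-deleted and control libraries in log2-like units (horizontal) for each gene, with its limma 95% interval, squares for the 9 libraries as labelled and circles for the 7 without LYT013 and LYT014. Ogn with 7 libraries lies at −1.94 with an interval of −2.33 to −1.55, whereas the intervals of Dcn, Bgn, Prelp and Lum include 0 in both. Those of Ogn (−2.18 to −0.20) and Fmod (−2.63 to −0.06) with 9 libraries and of Podn (0.02 to 0.81) with 7 also exclude 0. None of these latter differences passed after adjustment over all genes tested.

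Ogn, a small proteoglycan first described as a bone-associated matrix protein, had 572, 575, 510 and 834 normalised counts in control LYT004, LYT005, LYT015 and LYT017. YAP-deleted LYT006, LYT008 and LYT016 had 145, 119 and 95.9. The lowest of these 4 controls lay far above the highest of these 3 YAP-deleted libraries, and the groups did not overlap, as was the case for 3.46% of all genes tested in that direction. Ogn fell 5.19-fold in mean normalised counts, from 623 ± 144 to 120 ± 24.7 (SD, n = 4 and 3). On the deposited scale, which is narrower than log2 at this level, the difference was −1.94 ± 0.17 log2-like units (SE, limma adjusted p = 0.00651). Ogn had the fourth smallest p of 17292 genes. Among library codes 4 to 8 the difference was −1.75 ± 0.13 (2 against 2 libraries, limma adjusted p = 0.130). Among codes 13 to 17 it was −0.72 ± 0.73 as labelled (limma adjusted p = 0.757), with LYT013 and LYT014 included. In the 7 libraries the code range as a term left it at −1.94 ± 0.17 (limma adjusted p = 0.00391).

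The 2 libraries shown apart lay on opposite sides of this gap. The library labelled control LYT014 had 136 Ogn counts, inside the range of YAP-deleted LYT006, LYT008 and LYT016. The library labelled YAP-deleted LYT013 had 460, above every library of that range and below the lowest of the 4 other controls, 510. As labelled, the 9 libraries gave 526 ± 251 Ogn counts in controls against 205 ± 171 in YAP-deleted ones (SD, n = 5 and 4). The difference was −1.19 ± 0.45 (SE, limma adjusted p = 0.649). Among the 8599 genes at or above the median level, Yap1 had the pattern most like that of Ogn over the 9 libraries, with a Pearson r of 0.98 of the deposited values. The sorting receptor gene Sorcs2 (0.92) and the vesicle trafficking gene Sytl2 (0.91) came next. The 9 libraries fall into a low and a high cluster in both Ogn and Yap1, so r serves here as a measure of likeness and carries no test. Within the 4 libraries with 618 to 648 Yap1 counts, Ogn ranged from 95.9 to 145, and within the 5 with 2530 to 3653 it ranged from 460 to 834.

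**Figure D4:**
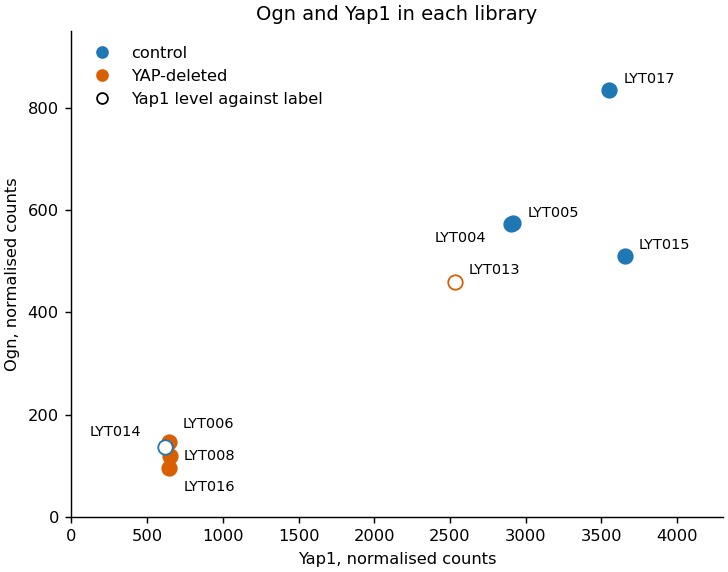
Ogn against Yap1 in normalised counts for each of the 9 libraries, coloured by labelled group, with open circles for the 2 libraries whose Yap1 level goes against the label. LYT014 (618 Yap1, 136 Ogn) lies beside LYT006, LYT008 and LYT016, and LYT013 (2530 Yap1, 460 Ogn) lies beside the 4 other controls.

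Ogn lies on chromosome 13 at 49608046 to 49624501 (GRCm38, plus strand, GENCODE M21; 7 exons in the annotated transcript) in a row of related genes: Ecm2 and Aspn precede it, and Omd (osteomodulin) ends 15.2 kb before it. The whole row sits inside Cenpp, a centromere protein gene on the opposite strand that shares 0 exon bases with Ogn and 7 with Aspn. The neighbours did not pass. In the 7 libraries Omd, at 17.7 to 52.4 normalised counts over all 9, differed by −0.26 ± 0.17, Ecm2 by −0.14 ± 0.15, Aspn by −0.24 ± 0.15 and Cenpp by −0.42 ± 0.45 (SE, limma adjusted p from 0.844 to 0.933). With 9 libraries the differences, in the same order, were −0.16 ± 0.16, −0.17 ± 0.14, −0.24 ± 0.12 and −0.50 ± 0.36 (SE, limma adjusted p from 0.649 to 0.747). Aspn was at the limit of detection, with 3, 5, 5, 5 and 5 recovered counts in the 5 control libraries and 0, 3, 2 and 5 in the 4 YAP-deleted ones, in order of library code. Since 3 counts correspond to 1.80 to 4.03 normalised counts at these depths, no fold is given for it.

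The sequence before the start of transcription is shown for Ogn, for its neighbour Aspn and for Fmod, the other gene of wide spread, to let the motifs named below be read in place. Each is the 250 bases before the RefSeq start on GRCm38.p6, 5′ to 3′ on the plus strand, on which all 3 genes lie. Capitals mark matches to GGAATG (the core of the motif of the TEAD factors, the DNA-binding partners of YAP) and TATAAA (the TATA box letters) on either strand.
Ogn (chr13:49607765-49608014): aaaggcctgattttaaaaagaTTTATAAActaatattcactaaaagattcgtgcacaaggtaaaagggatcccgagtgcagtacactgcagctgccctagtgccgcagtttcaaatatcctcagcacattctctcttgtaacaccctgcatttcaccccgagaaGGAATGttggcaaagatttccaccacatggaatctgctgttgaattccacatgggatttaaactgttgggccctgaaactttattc
Aspn (chr13:49544193-49544442): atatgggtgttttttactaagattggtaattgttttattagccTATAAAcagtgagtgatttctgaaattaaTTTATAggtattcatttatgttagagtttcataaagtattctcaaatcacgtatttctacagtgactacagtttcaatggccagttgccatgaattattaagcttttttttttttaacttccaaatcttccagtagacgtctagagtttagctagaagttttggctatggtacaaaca
Fmod (chr1:134037004-134037253): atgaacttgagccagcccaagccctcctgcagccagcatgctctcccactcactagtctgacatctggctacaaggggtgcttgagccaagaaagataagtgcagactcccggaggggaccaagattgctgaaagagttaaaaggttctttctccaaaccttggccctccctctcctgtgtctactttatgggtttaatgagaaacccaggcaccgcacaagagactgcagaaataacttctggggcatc

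The Ogn window holds GGAATG once, on the gene's strand, with its first base 86 bases before the start, and the Aspn and Fmod windows hold it on neither strand. The letters occur on 1 or the other strand in 12.6% of 32851 windows of this length in the table. Windows were found for 6 of the 8 genes, with 7 windows in all, and not for Dcn and Lum. The Ogn window was the 1 of the 7 with GGAATG. The letters TATAAA were found in the Ogn window, where matches on the 2 strands overlap, with first bases 229 and 227 bases before the start, and in the Aspn window (207 and 178 bases before), against 12.4% of all windows. The AP-1 letters TGANTCA were in 0 of the 7, against 6.75% of all windows. A match is a description of the letters and no evidence of binding.

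Fmod, which binds collagen and acts on its crosslinking, had the widest spread of the 8, 18.8-fold between its extremes. Control LYT004 and LYT005 had 1507 and 1280 normalised counts, far above control LYT014, LYT015 and LYT017 at 335, 305 and 180. YAP-deleted LYT006, LYT008, LYT013 and LYT016 had 214.5, 444, 80.2 and 102. The groups overlapped, since LYT008 and LYT006 exceeded control LYT017. Fmod averaged 722 ± 622 in the control group against 210 ± 167 in the YAP-deleted group (SD, n = 5 and 4). This amounted to −1.34 ± 0.58 log2-like units (SE, limma adjusted p = 0.649). With the 7 libraries it was −1.23 ± 0.69 (limma adjusted p = 0.810). With single libraries left out in turn the 7-library difference ran from −1.71 to −0.81. It was −0.81, −0.88 or −0.82 without LYT004, LYT005 or LYT016. The library codes fall into 2 ranges, 4 to 8 and 13 to 17, which the labels do not tie to a batch. Within each range the control and YAP-deleted values of Fmod did not overlap, with LYT004 and LYT005 above LYT006 and LYT008, and LYT014, LYT015 and LYT017 above LYT013 and LYT016. With so few libraries this pattern is common: 20.7% of all genes tested had it in that direction within codes 4 to 8 and 10% within codes 13 to 17. The differences were −1.97 ± 0.31 and −1.15 ± 0.26 (SE, limma adjusted p = 0.464 and 0.706), and −1.52 ± 0.24 over all 9 libraries with the code range as a term (limma adjusted p = 0.373). Since LYT013 and LYT014 go against their labels in Yap1, the second range rests on 2 libraries in doubt.

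The 4 libraries with the most Fmod were those with the most cell cycle transcripts. The summed level of 12 fixed cell cycle genes was 19813, 27447, 18849 and 5884 normalised counts in LYT004, LYT005, LYT008 and LYT014, and 712 to 1071 in the other 5. Dcn had its 4 lowest values in the same libraries. Lox, a collagen crosslinking enzyme gene, was most like Fmod over the 9 libraries (r = 0.99), followed by the fibril-associated collagen gene Col12a1 (0.98) and the actin regulator gene Enah (0.97). These r values, the highest among the 8599 genes, measure likeness and carry no test. Col12a1 had 2562 and 1610 normalised counts in LYT004 and LYT005 and 77.8 to 567 in the others. The part of cell cycle activity in the Fmod values was not tested.

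Podn, whose product restrains smooth muscle proliferation, had 622, 878, 733, 525 and 489 normalised counts in the controls LYT004, LYT005, LYT014, LYT015 and LYT017. The YAP-deleted LYT006, LYT008, LYT013 and LYT016 had 909, 800, 651 and 811. The groups overlapped, since control LYT005 lay above LYT008, LYT013 and LYT016. Podn differed by 0.29 ± 0.16 with 9 libraries and by 0.42 ± 0.17 with 7 (SE, limma adjusted p = 0.651 and 0.761). In the 7 libraries its unadjusted limma p was 0.0420, which ranked 954th of 17292 genes. An unadjusted limma p under 0.05 was reached by 6.31% of all genes tested in either direction. The share was 3.04% in the lower direction, that of Ogn and opposite to Podn.

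The 8 genes did not vary together as a block. Of the 28 pairs, 4 had an unadjusted Pearson p under 0.05 over the 9 libraries and 0 passed after adjustment over the 28. Dcn and Prelp had r = 0.81 (exact permutation p = 0.00926, adjusted 0.141) and a Spearman rho of 0.68 (p = 0.0503, adjusted 0.352), and r = 0.62 without LYT004 and LYT016, the 2 libraries farthest from the Dcn median. Dcn and Fmod had r = −0.79 (exact permutation p = 0.0101, adjusted 0.141), rho = −0.78 (p = 0.0172, adjusted 0.161) and r = −0.62 without the same 2 libraries. Lum and Fmod had r = 0.75 (exact permutation p = 0.0216, adjusted 0.201), rho = 0.82 (p = 0.0108, adjusted 0.161) and r = 0.71 without LYT013 and LYT017. Bgn and Podn had r = 0.72 (exact permutation p = 0.0312, adjusted 0.218), rho = 0.78 (p = 0.0172, adjusted 0.161) and r = 0.68 without LYT006 and LYT008. With the 7 libraries 2 pairs passed, Dcn and Fmod (r = −0.95) and Lum and Prelp (r = −0.93), both with an exact permutation p adjusted to 0.0361. Over the 9 libraries Lum and Prelp had r = −0.55 (exact permutation p = 0.120, adjusted 0.421). In the 7 libraries both genes split by code range. Lum had 29945 to 37598 normalised counts in LYT004, LYT005, LYT006 and LYT008 and 19669 to 26175 in LYT015, LYT016 and LYT017. Prelp had 69771 to 91778 and 110878 to 123976 in the same libraries. The part of code range in this r was not tested.

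**Figure D5:**
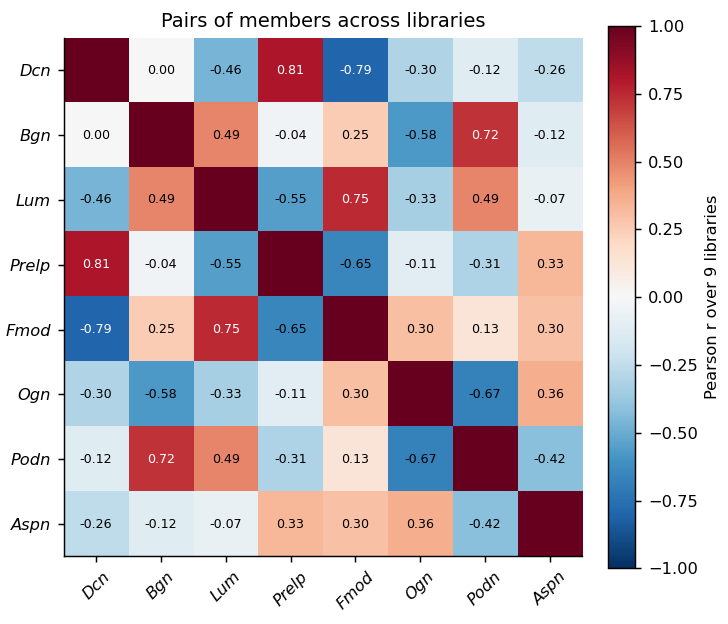
Pearson r of the deposited values over the 9 libraries for each of the 28 pairs of the 8 genes, blue negative and red positive. The extremes are 0.81 for Dcn and Prelp and −0.79 for Dcn and Fmod.

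Of the pairs that are neighbours on a chromosome, none passed after adjustment with 9 or with 7 libraries. Dcn (chromosome 10, 97479609 to 97518143) and Lum (97565128 to 97572703) are adjacent, 47.0 kb apart on the plus strand, and had r = −0.46 with 9 libraries and −0.65 with 7. Prelp (chromosome 1, 133910304 to 133921414, minus strand) and Fmod (134037254 to 134048277, plus strand) are 115.8 kb apart with 0 coding genes between them, and had r = −0.65 with 9 libraries and −0.87 with 7. Aspn (chromosome 13, 49544443 to 49567565) and Ogn are 40.5 kb apart and had r = 0.36 and 0.51, with Aspn near the limit of detection. The adjusted exact permutation p-values of these 3 pairs were 0.539, 0.268 and 0.655 with 9 libraries and 0.349, 0.0944 and 0.580 with 7. Bgn (chromosome X, 73483602 to 73495933) and Podn (chromosome 4, 108014791 to 108096445) have no other of the 8 on their chromosomes. Prelp overlaps the antisense gene Gm15851 by 350 exon bases, and without knowing how strand was used its reads and those of the partner cannot be told apart.

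Each abundant gene had other companions among the 8599 genes. Those below have the highest r over the 9 libraries, which measures likeness and carries no test. Dcn was most like the chemokine gene Cxcl12 (r = 0.97), the ADAMTS-like gene Adamtsl4 (0.96) and the selenium transporter gene Selenop (0.95). Lum was most like Tbl1xr1 (0.99), a corepressor subunit, the plasminogen activator gene Plat (0.98) and the dermatopontin gene Dpt (0.97). Prelp was most like Eif4e3 (0.98), Ehd3 (0.97) and the transporter gene Slco2b1 (0.96), and Bgn most like Fam216a (0.96), the adenylyl cyclase gene Adcy3 (0.95) and Carm1 (0.94). Podn was most like Lipe (0.91), Homer3 (0.90) and G6pdx (0.88), the lowest likeness of these.

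Dpt is 1 of 11 fixed portal fibroblast markers, and their summed level moved with Lum. It was 16493, 12694, 9560, 7211 and 5266 normalised counts in the controls LYT004, LYT005, LYT014, LYT015 and LYT017, and 12305, 13169, 4468 and 7660 in YAP-deleted LYT006, LYT008, LYT013 and LYT016. LYT004 was highest and LYT013 lowest for both Lum and this sum, most of which came from Eln, Dpt, Col15a1 and Cd34. Single markers did not all follow it: Entpd2, an ectonucleotidase gene, was highest in LYT013 (295 against 222 in LYT004), and Thy1 had 41.9 in LYT013 and 39.4 in LYT004. All 11 were above the lowest value in 7 of the 9 libraries and 10 in the other 2, with the fibroblast protease inhibitor gene Pi16 at 0 to 12.1 normalised counts. Their part in the Lum values was not tested. In the libraries compared for Ogn, the portal fibroblast sum was 5266 to 16493 in control LYT004, LYT005, LYT015 and LYT017 and 7660 to 13169 in YAP-deleted LYT006, LYT008 and LYT016. The summed level of 8 mesothelial markers, of which 2 to 8 were above the lowest value, was 513 to 1416 in these controls and 665 to 1483 in these YAP-deleted libraries. Most of it was Wt1, a transcription factor gene, with 206 to 1478 over all 9 libraries. Wt1 had 1415 in LYT004 and 1478 in LYT006, against 599 of a sum of 665 in LYT016 and 484 of 619 in LYT017. The mesothelial surface genes Msln, Muc16 and Upk3b were at 0 to 2.45 in LYT004 and LYT005, at 9.18 to 16.7 in LYT016 and highest in LYT017, at 34.9, 30.9 and 32.2. LYT017 had the most Ogn of the 9 libraries and LYT016 the least. The part of either cell type in the Ogn values was not tested.

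Markers of other cells were low beside those of stellate cells, whose 12 genes summed to 444313 to 757806 normalised counts. Macrophage markers (12 of 12 above the lowest value) summed to 716 to 1929 in control and 1051 to 2600 in YAP-deleted libraries. Of their differences, 10 were positive and 2 negative with 9 libraries (median 0.23), and 11 and 1 with 7 (median 0.20). None of the 12 passed. Endothelial markers (10 of 10) summed to 1231 to 4857 in control and 1985 to 4346 in YAP-deleted libraries, and hepatocyte markers (10 of 10) to 405 to 1313 and 752 to 1488. Vascular smooth muscle markers (5 to 7 of 7) summed to 8301 to 10431 and 7697 to 15612. Each of these ranges overlapped between the groups. Most of the smooth muscle sum was Des, the desmin gene, which is also on the stellate list and had 5239 to 6813 counts in control and 5644 to 11983 in YAP-deleted libraries. With 7 libraries all 6 smooth muscle genes tested had negative differences and none passed, with the myosin gene Myh11 at −0.41 (unadjusted p = 0.0326, limma adjusted p = 0.756). The actin gene Actg2 had 13.2 to 58.9 counts in control and 4.61 to 12.8 in YAP-deleted libraries, which did not overlap, as for 1.15% of all genes in that direction. Their part in the values of the proteoglycans was not tested.

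Of 10 further members of the family, 6 passed the filter on low values in both fits and none passed the threshold. Ecm2, an extracellular matrix protein gene of the chromosome 13 row, had 690 to 1088 normalised counts and Tsku (tsukushi), a secreted signalling modulator, had 399 to 702. The nyctalopin gene Nyx had 10.8 to 67.8, Omd 17.7 to 52.4, Optc (opticin) 7.54 to 29.9 and Chadl 6.38 to 19.6. Kera (keratocan) and Podnl1 each had 1 count in a single library, and Epyc (epiphycan) and Chad (chondroadherin) had 0 in all 9, which at 3 counts allows up to 4.03 normalised counts in the shallowest library. Keratocan and epiphycan lie directly beyond Lum on chromosome 10, so this row held the most abundant member beside nearly or wholly undetected ones. In the 7 libraries the differences of the 6 ran from −0.26 to 0.12, with 4 negative and 2 positive.

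The enzymes that build the sugar chains of these proteoglycans did not pass in either fit. Of 7 genes for the linker that joins chain and protein, all were tested and the median difference was 0.09 with 9 libraries and 0.09 with 7, and B3gat3, a glucuronosyltransferase, differed by 0.42 ± 0.19 and 0.21 ± 0.13. Of 16 chondroitin and dermatan sulfate genes, 15 were tested, with medians of −0.10 and 0.02. The dermatan sulfotransferase gene Chst14 differed by 0.18 ± 0.09 and 0.16 ± 0.08, and its 7-library groups did not overlap, against 3.86% of all genes in that direction and 7.33% in either. Of 7 keratan sulfate genes, 5 were tested, with medians of −0.04 and 0.09, and the sulfotransferase gene Chst1 differed by −0.30 ± 0.28 and −0.63 ± 0.25. The summed level of the 16 chondroitin and dermatan genes was 22635 normalised counts in LYT013 and 27376 to 33908 in the other libraries.

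Proteases and partners of these proteoglycans also showed 0 genes past the threshold in either fit. Of 11 protease genes, 10 were tested, with medians of −0.03 and −0.02, and the gelatinase gene Mmp2, whose product cleaves decorin, differed by 0.21 ± 0.22 with 9 libraries and 0.43 ± 0.21 with 7. All 16 ligands and receptors bound by members of the family were tested, and 13 were negative with 9 libraries (median −0.23) and 12 with 7 (median −0.10). Over all genes tested, 8754 of 17199 were negative with 9 libraries and 8932 of 17292 with 7. The growth factor gene Tgfb2, whose product decorin binds, had 492 to 668 normalised counts in control LYT004, LYT005, LYT015 and LYT017 and 368 to 480 in YAP-deleted LYT006, LYT008 and LYT016, and these ranges did not overlap, as for 3.46% of all genes in that direction. Its difference was −0.52 ± 0.13 with 7 libraries and −0.19 ± 0.21 with 9 (SE, limma adjusted p = 0.532 and 0.765). As with Ogn, LYT014 was low (342) and LYT013 high (695). Igf1r and Met, receptors that decorin binds, differed by −0.56 ± 0.20 and −0.31 ± 0.12 with 7 libraries (limma adjusted p = 0.727 and 0.756). Met was scarce, at 1.20 to 14.9 normalised counts over the 9 libraries, against 850 to 2142 for Igf1r.

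The collagens and fibronectin that these proteoglycans coat had medians of −0.46 with 9 libraries and −0.28 with 7, and none of the 12 passed. Their summed level was 1160050 and 1169340 normalised counts in control LYT004 and LYT005 and 909951 in YAP-deleted LYT008, and 473266 to 680765 in the other 6 libraries. Col12a1 had the lowest difference of the 12, −1.47 ± 0.61 with 9 libraries and −1.17 ± 0.67 with 7 (SE, limma adjusted p = 0.649 and 0.819). Fn1, the fibronectin gene, differed by −0.41 ± 0.22 with 7 libraries and Col5a2 by −0.47 ± 0.37.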

How the data were processed

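RNA of sorted stellate cells from 9 libraries was sequenced. The protocol, per the labels, describes both a poly-A and a ribosomal depletion TruSeq preparation without tying either to a library. Tools named without a role, per the submitters' processing notes, are bcl2fastq 2.20, kallisto 0.44.0 and sleuth, and the builds are GRCm38, GRCh38 and mm10. The authors deposited 1 variance-stabilised number, close to log2, per gene name and library. The step that made it is not given in these sources. The lowest value, 4.96, stood for 0 counts. Inverting the inverse hyperbolic sine form gave whole numbers (within 0.1) for 100% of the other values in every library, with totals of 14052502 to 31816055.

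Because the unit was a transformed value, no count model was the main test. A gene had to exceed the lowest value in 4 or more of 9 libraries, or 3 or more of 7, to enter limma 3.58.1 (R 4.3.3) with group as the term and a trended prior variance. Its p-values are two-sided and adjusted by Benjamini-Hochberg over all genes tested. The table repeats 2 names, which were left out. Pairs of genes had exact two-sided permutation tests. Positions and transcript lengths came from GENCODE M21 (GRCm38), and the sequences from RefSeq (GRCm38.p6). Tested on simulated data, the fit gave a larger share of false calls than the nominal threshold. The 8 genes, the lists, the 7-library comparison and the rule for named genes (the 8, Yap1, their 3 most alike genes, other family members, and up to 3 genes of smallest p per list) were chosen with earlier results of these data known. Some genes of the lists that appear beside a result were named after their values were seen. Alternatives covered filters, scaling, transformation, voom, robust moderation, library weights, library code ranges and the omission of libraries.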

Additional observations from a re-analysis of the deposited data

How the results depend on the processing

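Ogn passed in all 16 alternatives of the 7-library comparison, with differences from −2.39 to −1.80 and limma adjusted p-values from 0.00187 to 0.0489. With 9 libraries it passed in 1 of 21, the omission of both LYT013 and LYT014, which raised the genes called from 0 to 12 and the members called to 1. Of the 12 genes called with 7 libraries, the number became 25 with the library code range as covariate and ran from 3 to 11 when single libraries were left out. The causes were not tested. Fmod and Podn kept their sign throughout and passed in none. Small differences changed sign. With 9 libraries these were Bgn (−0.083 by quantile normalisation, −0.0092 within codes 13 to 17), Prelp (−0.034 by quantile normalisation, −0.018 with library weights, −0.11 within codes 13 to 17, −0.092 to 0.11 with single libraries left out) and Lum (0.050 with library weights, 0.065 without LYT013 and LYT014, −0.28 to 0.019 with single libraries left out). With 7 libraries these were Bgn (−0.000172 by quantile normalisation), Prelp (−0.059 with library weights, −0.075 to 0.20 with single libraries left out) and Lum (−0.010 with the code range as covariate, −0.099 to 0.21 with single libraries left out). The correlation of Dcn and Bgn went from 0.0030 to −0.069 without LYT013 and LYT014. Mean instead of longest transcript length kept the order of levels per kilobase. Depth limits Aspn, at 0 to 5 counts a library.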

Other observations

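The 8 genes differed in how far they varied between libraries. The SD of the deposited values over the 9 libraries was 1.23 for Fmod, above that of 99.4% of the 500 genes nearest to it in mean level, whose median SD was 0.221. For Ogn it was 0.994, above 97.6% of its 500, with a median of 0.233. Podn, at 0.293, lay above 75.2% of its 500. Dcn, Bgn, Prelp and Lum had SDs of 0.236, 0.128, 0.262 and 0.340. These 4 lie so near the top of the range of levels that the 500 genes nearest to them are mostly less abundant than they are, so no comparison with genes of like level is given for them.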
